A study of Homo sapiens with 6 samples.

Results

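The BCL2 family genes described here are BCL2, BCL2L1, MCL1, BAX, BAK1, BID, BCL2L11, PMAIP1, BBC3 and BIK, and they were taken by their symbols, 1 row each, from a count table of 33451 genes. All 10 were found and all 10 passed the filter on low counts, which 18183 genes passed. The table held mRNA read counts of 6 libraries from MDA-MB-453, an established human breast cancer cell line. The Control group (3 libraries) was cultured with solvent and the 25(OH)D group (3 libraries) with 100 nM 25-hydroxyvitamin D, the main circulating form of vitamin D, and all libraries were taken on day 5. The cells of both groups belonged to 1 line and the treatment was the only labelled difference between the groups. The comparison of 25(OH)D with Control asked which genes 25(OH)D changed, and within the family it sets the genes that block apoptosis beside those that drive it.

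The BCL2 family controls the mitochondrial route to apoptosis. Its anti-apoptotic proteins (BCL2, BCL-XL from BCL2L1, and MCL1) bind and hold the pro-apoptotic ones, the effectors BAX and BAK form pores in the mitochondrial outer membrane through which cytochrome c escapes, and the BH3-only proteins (BID, BIM from BCL2L11, NOXA from PMAIP1, PUMA from BBC3, and BIK) either activate the effectors or occupy the groove of the anti-apoptotic proteins. Many members are set by transcription (forkhead factors for BIM, for example) and several also by splicing, phosphorylation and protein turnover, which counts of mRNA per gene do not show.

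After 25(OH)D, BCL2L1 mRNA was 1.26-fold and MCL1 mRNA 1.11-fold higher than in Control, and BBC3 mRNA was 2.59-fold and BCL2L11 mRNA 1.31-fold lower. The other 6 members (BCL2, BAX, BAK1, BID, PMAIP1 and BIK) did not pass the test. In bulk libraries, less mRNA in each cell and fewer cells with that mRNA cannot be told apart. Calls were made at a Benjamini-Hochberg adjusted p under 0.05 over all genes tested, by edgeR's quasi-likelihood test on the counts, and at this limit 33.8% of all genes tested were called, 17.3% as higher and 16.5% as lower. With 4 of the 10 members called, 2 in each direction, the share in the family was close to that among all genes, and no excess of changed genes in the family is read from it. The median log2 fold change of the members was -0.07, beside -0.01 for all genes tested. By function the calls split, since the 2 called higher were among the 3 anti-apoptotic members and the 2 called lower among the 7 pro-apoptotic ones.

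The sequences before a RefSeq transcription start of BCL2L1, BCL2L11 and BBC3 are shown because these genes had the lowest adjusted p among the members and have an entry in the RefSeq promoter table (GRCh38.p14), as 8 of the 10 members do. MCL1 and BIK are named only. Each line gives the part of the 250 bases before the RefSeq start that lies outside the exons in the count table, 5′ to 3′ on the gene's strand, with matches to the motifs searched in capitals. The BCL2L1 line covers chr20:31723990-31724213 (minus strand), the BCL2L11 line chr2:111120664-111120913 (plus strand) and the BBC3 line chr19:47232767-47232917 (minus strand). The BCL2L1 and BBC3 lines end where the gene as counted begins, while the BCL2L11 line lies inside the bounds of the counted gene, between its exons and downstream of its first annotated start.
BCL2L1: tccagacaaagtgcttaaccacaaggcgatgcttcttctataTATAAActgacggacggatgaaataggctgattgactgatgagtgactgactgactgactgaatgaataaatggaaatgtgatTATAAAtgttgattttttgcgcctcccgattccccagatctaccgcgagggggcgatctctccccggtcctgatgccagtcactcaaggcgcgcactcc
BCL2L11: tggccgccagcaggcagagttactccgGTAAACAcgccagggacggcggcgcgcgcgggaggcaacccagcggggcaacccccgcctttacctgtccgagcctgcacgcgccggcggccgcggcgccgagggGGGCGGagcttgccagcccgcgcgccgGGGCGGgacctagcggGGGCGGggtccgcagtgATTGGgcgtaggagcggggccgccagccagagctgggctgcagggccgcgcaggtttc
BBC3: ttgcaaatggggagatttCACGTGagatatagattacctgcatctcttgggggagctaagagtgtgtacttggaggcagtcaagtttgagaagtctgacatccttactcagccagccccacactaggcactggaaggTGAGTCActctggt

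The motifs were searched on both strands of the 250 bases before the start, and the share of 35116 RefSeq promoters with at least 1 match is given beside each. The 250 bases of BCL2L11 were rich in G and C (76.8%, against a median of 58% over all promoters). They held the GC box GGGCGG at 118, 91 and 75 bases before the start (in 42.6% of promoters), CCAAT on the other strand at 58 (32%), and the forkhead core GTAAACA at 223 (2.98%). BCL2L1 held TATAAA at 208 and 125 bases before its start (10.7% of promoters). BBC3 held the E-box CACGTG at 232 (6.34%), the AP-1 motif TGANTCA at 113 (6.57%) and CCAAT on the other strand at 87, outside the printed stretch. None of 4 nuclear receptor half-sites, AGGTCA (12.1%), GGTTCA (7.16%), AGTTCA (8.8%) and GGGTCA (12.1%), was in these 3 windows. Any other RefSeq start of these genes was not searched, and which start the cells used was not measured. A match of letters describes the window and says nothing of binding, and no binding was measured here.

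Library totals were 33268860 to 40928176 counts. Of the markers checked, the 8 epithelial and luminal genes summed to 4120 to 4257 CPM (counts relative to library sizes scaled by TMM) in Control and 4399 to 4427 in 25(OH)D. The 4 fibroblast markers summed to 36.5 to 38.8 and 32.0 to 34.7 CPM, nearly all of it COL1A1, while the 4 leukocyte markers summed to 0.0614 to 0.416 CPM and PECAM1 and VWF to 0.104 to 0.489 CPM over the 6 libraries. CDH5 was not listed in the count table, which lists no gene without a count. Mitochondrially encoded genes took 7.85% to 7.99% of counts in Control and 8.89% to 9.24% in 25(OH)D. Their part in the results was not tested beyond a fit without them, in which 2 members were higher and 2 lower as before. The methods call the replicates biological without naming separate cultures, so p-values measure the spread between these libraries. Values after ± are SD over the 3 libraries of a group.

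The anti-apoptotic class held the most abundant members, MCL1 and BCL2L1, and also the least abundant, BCL2. BCL2L1 (chromosome 20, 31664452 to 31723989, minus strand, GRCh38) encodes BCL-XL and, by another splice site, the short pro-apoptotic BCL-XS. It stood at 73.4, 75.7 and 72.2 CPM in Control replicates 1 to 3 and at 93.6, 94.1 and 91.0 CPM in 25(OH)D replicates 1 to 3. Every treated library was above every control library, and the spread within each group was small (73.8 ± 1.79 against 92.9 ± 1.68 CPM). The log2 fold change was 0.33 (SE 0.0452, 95% interval 0.24 to 0.43, adjusted p = 4.90e-05 by edgeR's quasi-likelihood test).

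The BCL2L1 value carries a limit of the counting. ABALON, a long noncoding RNA on the opposite strand (chromosome 20, 31721507 to 31723409), shares 1424 of the 3314 exon bases of BCL2L1, which are 74.83% of ABALON's own. ABALON was counted at 83.2% to 85.0% of the BCL2L1 counts in the 6 libraries and moved with it, from 61.9 ± 1.41 to 78.6 ± 1.77 CPM (log2 fold change 0.34, SE 0.0475, adjusted p = 5.67e-05 by edgeR's quasi-likelihood test). The kit marks strand, but the strand setting of the counting is not given. Some genes have all their exons within the exons of a host gene with 1000 counts or more, summed over the 6 libraries. Of those running against the host, 338 of 364 (92.9%) had 10 summed counts or more. Of those running along with it, 217 of 238 (91.2%) did. Their counts per base were in the median 0.575 and 0.521 of the host's, so genes on the opposite strand were counted about as much. Reads from BCL2L1 and ABALON therefore cannot be told apart in these counts, and neither can BCL-XL and BCL-XS, since counts are per gene.

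MCL1 (chromosome 1, 150574551 to 150579738, minus strand) encodes a short-lived protein and was the most abundant member. Its values were 145, 139 and 141 CPM in Control and 165, 158 and 150 CPM in 25(OH)D. The groups did not overlap, although the lowest treated library was only slightly above the highest control library. The means were 141 ± 3.32 and 158 ± 7.59 CPM, a log2 fold change of 0.16 (SE 0.0448, 95% interval 0.059 to 0.25, adjusted p = 0.0153 by edgeR's quasi-likelihood test). This call was lost in 6 of 15 other settings, among them without Control replicate 2 (adjusted p = 0.0647) and without 25(OH)D replicate 1 (adjusted p = 0.0741), while the sign stayed the same.

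BCL2 (chromosome 18, 63123346 to 63320128, minus strand), the founding member of the family, was close to the limit of detection, with 42, 8 and 26 counts in Control and 16, 24 and 23 counts in 25(OH)D. The control libraries spanned the treated ones, from 0.212 to 1.01 CPM against 0.455 to 0.706 CPM. The log2 fold change was -0.12, and its 95% interval of -1.14 to 0.90 (adjusted p = 0.874, edgeR) leaves room for a change of either sign. At this depth no difference was detectable.

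The effectors did not pass the test. BAX (chromosome 19, 48954815 to 48961798, plus strand), which moves from the cytosol to mitochondria when activated, had 7.69, 10.6 and 9.42 CPM in Control and 8.51, 7.91 and 8.10 CPM in 25(OH)D. The treated libraries lay within the range of the controls, with a log2 fold change of -0.17 (95% interval -0.43 to 0.085, adjusted p = 0.301, edgeR). BAK1 (chromosome 6, 33572547 to 33580293, minus strand), whose protein sits in the mitochondrial membrane, had 3.87, 3.44 and 2.58 CPM in Control and 3.04, 2.42 and 3.81 CPM in 25(OH)D, also overlapping (log2 fold change -0.10, 95% interval -0.54 to 0.34). Of 2307 stretches of 100 bases in BAK1 transcripts, 82 also occur in its processed copy BAK1P1, so a small part of its reads may be split between them.

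Among the BH3-only genes, BBC3 and BCL2L11 fell. BBC3 (chromosome 19, 47220822 to 47232766, minus strand) encodes PUMA, which binds all main anti-apoptotic proteins. It had 2.11, 2.49 and 1.60 CPM in Control, from 88, 94 and 59 counts, and 1.02, 0.520 and 0.859 CPM in 25(OH)D, from 36, 20 and 28 counts. All treated libraries were below all controls, though the counts were low and the libraries of each group differed widely. The mean went from 2.07 ± 0.443 to 0.801 ± 0.257 CPM, a log2 fold change of -1.37 (SE 0.291, 95% interval -2.00 to -0.75, adjusted p = 0.00199 by edgeR's quasi-likelihood test). BBC3 was the only member past the study's own limits, a log2 fold change beyond 1 in size and an unadjusted p under 0.05, which 6.65% of all genes tested passed, 2.63% as lower.

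BCL2L11 (chromosome 2, 111119378 to 111168447, plus strand) encodes BIM, which is spliced into isoforms of different strength. Control libraries had 16.23, 14.65 and 14.99 CPM and 25(OH)D libraries 12.5, 12.3 and 10.1 CPM. The groups did not overlap, and the third 25(OH)D library was the lowest of all. The mean went from 15.3 ± 0.835 to 11.6 ± 1.30 CPM (log2 fold change -0.39, SE 0.0961, 95% interval -0.60 to -0.19, adjusted p = 0.00535 by edgeR's quasi-likelihood test). The window printed above for BCL2L11, which precedes a RefSeq start inside these bounds, held 3 GC boxes and a forkhead core. At least 1 GC box was in 42.6% of promoters and a forkhead core in 2.98%. Whether these motifs have a part in the fall was not tested.

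The other 3 BH3-only genes did not pass the test. BID (chromosome 22, 17734138 to 17774770, minus strand), which links death receptors and caspase-8 to mitochondria, ranged from 7.44 to 9.73 CPM in Control and from 8.73 to 9.57 CPM in 25(OH)D (log2 fold change 0.12, 95% interval -0.12 to 0.37). BIK (chromosome 22, 43110748 to 43129712, plus strand), whose protein resides mainly at the endoplasmic reticulum, ranged from 3.30 to 4.32 and from 3.50 to 3.95 CPM (log2 fold change -0.05, 95% interval -0.38 to 0.29). PMAIP1 (chromosome 18, 59899948 to 59904306, plus strand) encodes NOXA, the BH3-only protein that binds MCL1 most selectively. It had 22 counts in each control library and 24, 28 and 14 counts in 25(OH)D, so its interval of -0.67 to 0.90 around a log2 fold change of 0.12 was wide. BBC3 and PMAIP1 were thus both low in these cells, and the test called a fall for BBC3 and made no call for PMAIP1. Whether the fold changes of these 2 genes differ from each other was not tested.

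**Figure D1:**
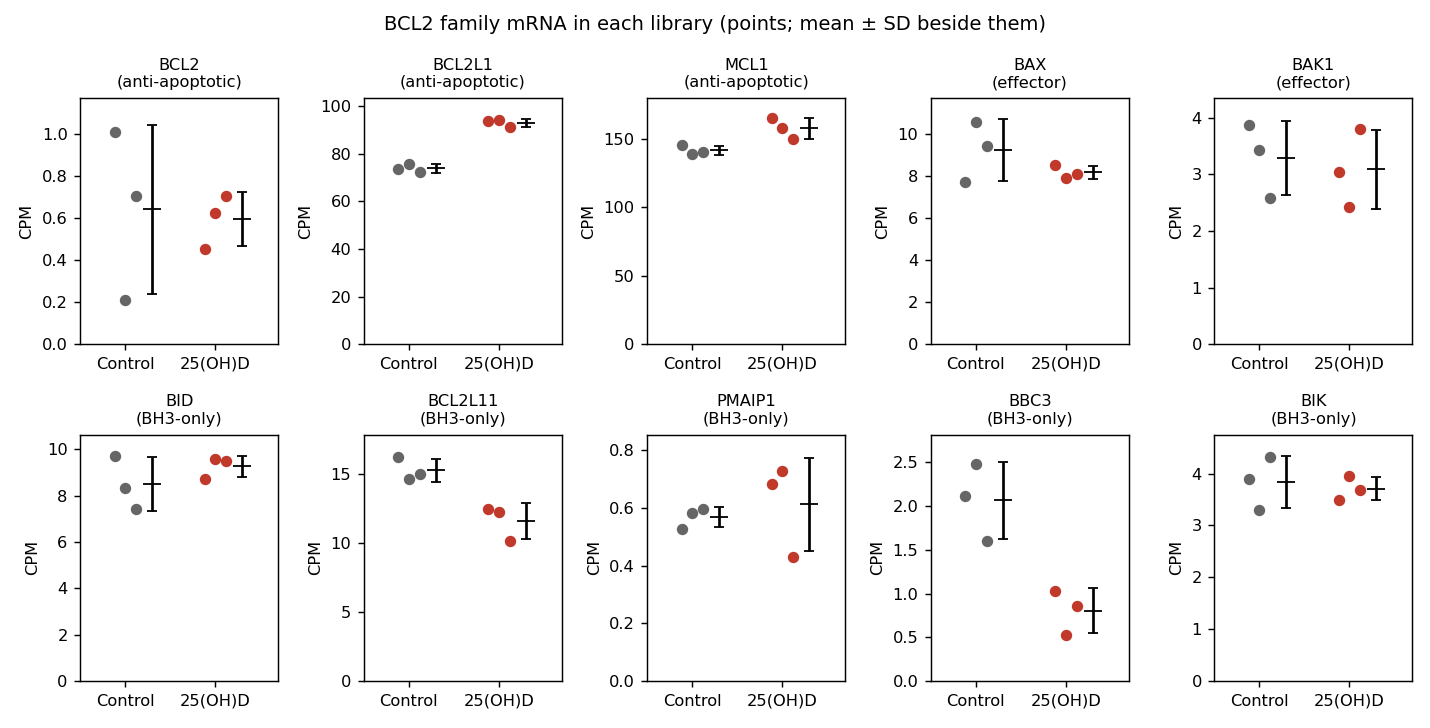
CPM of each of the 10 BCL2 family genes (y axis, from 0) in the 3 Control (grey) and 3 25(OH)D (red) libraries, with the mean ± SD in black. The groups are apart for BCL2L1 and MCL1, higher in 25(OH)D, and for BCL2L11 and BBC3, lower in 25(OH)D, and overlap for the other 6.

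Over the family, the groups did not overlap for 4 of the 10 members, beside 45.7% of all genes tested. The members of each functional class were not uniform. In the anti-apoptotic class BCL2L1 and MCL1 rose and BCL2 had an interval too wide to place. In the pro-apoptotic class the fold change was negative for 5 and positive for 2 of the 7, the median was -0.10 on the log2 scale, and the fall of BBC3 was far from the others. The plot of fold changes shows the intervals side by side.

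**Figure D2:**
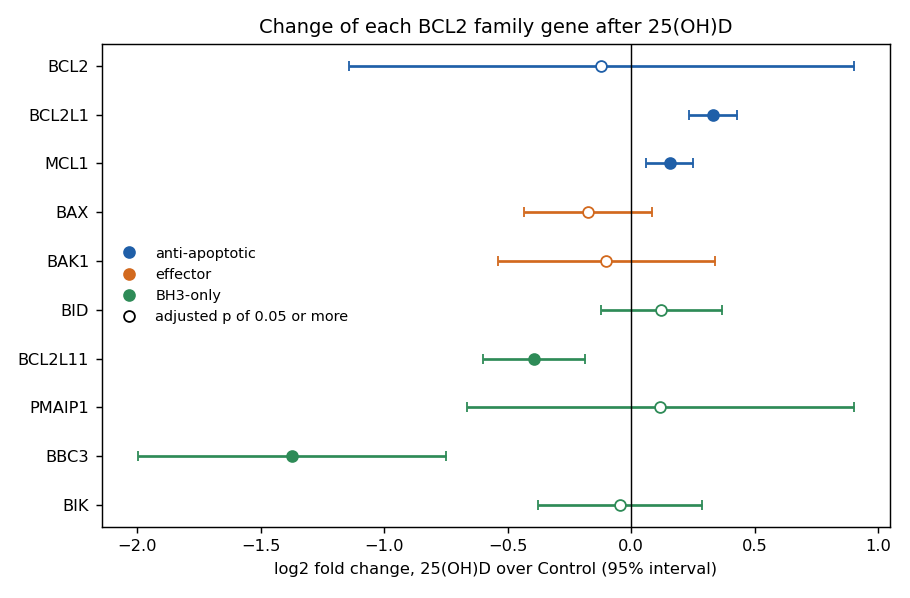
log2 fold change of 25(OH)D over Control for each member (x axis) with its 95% interval, anti-apoptotic genes in blue, effectors in orange and BH3-only genes in green, and filled points for an adjusted p under 0.05. BBC3 lies at -1.37, the other 9 between -0.39 and 0.33, and BCL2 and PMAIP1 have wide intervals that both end at 0.90.

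Levels between genes were compared per length, as RPKM, in which a count is divided by the gene's length and by the library's total. In Control the order was MCL1 (32.8 ± 0.820 RPKM), BCL2L1 (22.6 ± 0.628), BIK (4.08), BAX (3.62), BCL2L11 (2.33), BID (1.94), BAK1 (1.51), BBC3 (0.660), PMAIP1 (0.258) and BCL2 (0.0554). The neighbours BIK and BAX overlapped between libraries, as did BID and BAK1. In 25(OH)D the order was MCL1 (35.5 ± 1.76 RPKM), BCL2L1 (27.6 ± 0.647), BIK (3.83), BAX (3.11), BID (2.05), BCL2L11 (1.72), BAK1 (1.37), PMAIP1 (0.270), BBC3 (0.248) and BCL2 (0.0498). BCL2L11 and BBC3 each moved down 1 place, to where BCL2L11 overlapped BAK1 and BBC3 overlapped PMAIP1. MCL1 and BCL2L1 together made up most of the family's mRNA in both groups, and BCL2 itself 0.0791% of the summed member RPKM in Control and 0.0660% in 25(OH)D.

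Summed over their members, anti-apoptotic mRNA went from 55.5 ± 0.927 to 63.1 ± 2.28 RPKM, and pro-apoptotic mRNA from 14.4 ± 0.213 to 12.6 ± 0.0636 RPKM. The ratio of these sums was 3.87, 3.84 and 3.85 in Control and 5.16, 5.05 and 4.81 in 25(OH)D, 1.30 times higher in the mean. The control libraries were nearly equal and all treated libraries lay above them. Without BCL2L1, whose reads cannot be told from those of ABALON, the ratio went from 2.28 ± 0.0475 to 2.82 ± 0.138, which is 1.23-fold, and the groups still did not overlap. Members that were not called also enter the pro-apoptotic sum. BAX went from 3.62 to 3.11 RPKM, BIK from 4.08 to 3.83 and BAK1 from 1.51 to 1.37, while BID and PMAIP1 went slightly up. The sums follow the most abundant genes and are given as a description, with no test, because the members were chosen for their opposed roles.

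**Figure D3:**
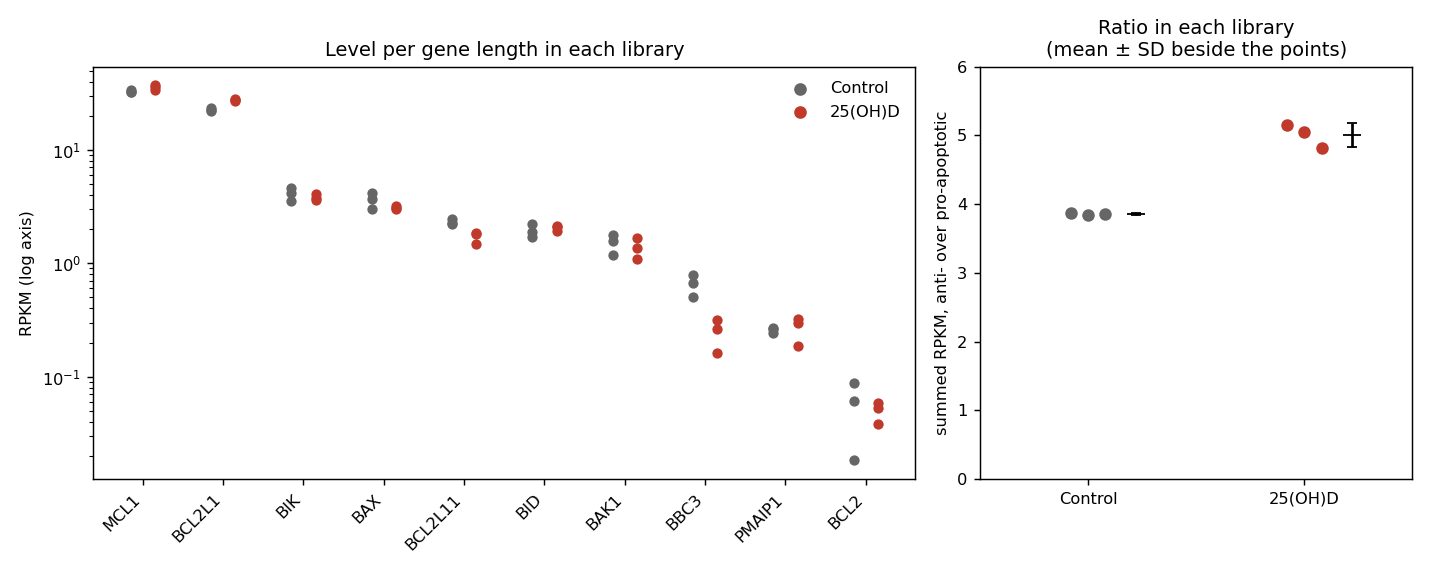
Left, RPKM of each member in every library on a log axis, in the order of the Control means, grey for Control and red for 25(OH)D. Right, summed RPKM of the 3 anti-apoptotic over that of the 7 pro-apoptotic members in each library (y axis from 0) with mean ± SD, 3.85 ± 0.0153 in Control and 5.01 ± 0.176 in 25(OH)D.

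When each gene counted equally, on the log2 CPM scale, the anti-apoptotic mean minus the pro-apoptotic mean was 2.41, 1.73 and 2.35 in Control and 2.46, 2.71 and 2.69 in 25(OH)D. The second control library, which had 8 counts of BCL2, was the lowest. The mean difference between the groups was 0.46, and without that library it was 0.24. Ratios of single pairs differed from pair to pair. BCL2L1 over BCL2L11 went from 9.72 ± 0.656 to 16.2 ± 1.63 in RPKM and MCL1 over BBC3 from 51.5 ± 11.7 to 155 ± 57.4, both without overlap. In both pairs the single genes were already apart in CPM, in opposite directions. The lack of overlap of these ratios follows from that and adds no support. BCL2L1 over BAX went from 6.34 ± 0.981 to 8.88 ± 0.365, also without overlap. BCL2L1 alone was already apart in CPM, while BAX overlapped and was not called, so this ratio adds no support for a change of BAX. MCL1 over PMAIP1 (128 in Control, 138 in 25(OH)D) and BCL2 over BAX (0.0166 and 0.0161) overlapped. MCL1 over BCL2L1 went from 1.45 to 1.28 without overlap, with no test made. All ratios with BCL2L1 carry the limit that its reads cannot be told from those of ABALON.

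The family has further members outside the 10. Of the other anti-apoptotic genes, BCL2L2, which encodes BCL-W, rose from 34.6 ± 3.02 to 40.4 ± 1.72 CPM (log2 fold change 0.22, SE 0.0694, adjusted p = 0.0222 by edgeR's quasi-likelihood test), a call that was lost in 7 of 15 other settings. BCL2A1 had 2, 3 and 2 counts in Control and 0 in each 25(OH)D library, and BCL2L10 at most 2 counts in any library, so neither was tested. Of the other pro-apoptotic genes, BMF fell from 3.53, 2.88 and 4.02 CPM to 2.16, 1.77 and 1.75 CPM. BMF is a BH3-only gene whose protein is held at the cytoskeleton, and its groups were apart (3.48 ± 0.571 against 1.89 ± 0.233 CPM, log2 fold change -0.88, SE 0.191, adjusted p = 0.00249 by edgeR's quasi-likelihood test). BAD (log2 fold change 0.12, adjusted p = 0.231) and BOK (0.04, adjusted p = 0.829) did not pass the edgeR test, and HRK had at most 2 counts. Of the 8 BH3-only genes in both sets, 7 were tested, all but HRK, and BBC3, BCL2L11 and BMF were lower and none higher. Among all genes tested, 16.5% were lower and 17.3% higher. This grouping over both sets was not planned, and no excess of falls is read from such small counts.

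Several proteins set how long MCL1 lasts, and of the 5 such genes listed, 3 rose and 1 fell, beside 17.3% and 16.5% of all genes tested. HUWE1, a ubiquitin ligase with a BH3 domain that marks MCL1 for degradation, had 609, 622 and 586 CPM in Control and 1106, 1111 and 1148 CPM in 25(OH)D (log2 fold change 0.89, SE 0.0350, adjusted p = 1.03e-10 by edgeR's quasi-likelihood test). FBXW7, another ligase subunit for MCL1, moved the other way, from 97.6, 99.5 and 103 CPM to 68.4, 69.1 and 69.6 CPM (log2 fold change -0.54, adjusted p = 4.01e-07, edgeR). BTRC (log2 fold change 0.25) and MARCHF5 (0.24, listed as MARCH5) rose less, and both calls were lost in 3 of 15 other settings, while USP9X, which removes ubiquitin from MCL1, had a log2 fold change of 0.05 (adjusted p = 0.329, edgeR). The ligases thus did not move in 1 direction, and MCL1 protein was not measured in these files.

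Of the 4 outer membrane partners of BAX and BAK, VDAC2, which holds BAK in the membrane, had a log2 fold change of 0.18 (adjusted p = 0.0257, edgeR), lost in 8 of 15 other settings. VDAC1 (-0.04), VDAC3 (-0.13) and MTCH2 (0.23), the mitochondrial receptor of BID, did not pass, although MTCH2 was called in 4 of 15 other settings, with 0.15 to 0.35 when 1 library was left out. Downstream of the pores, 11 of 12 apoptosome and caspase genes were tested, with 1 higher, 1 lower and a median log2 fold change of 0.07. The calls in this list and in those that follow stand beside 17.3% higher and 16.5% lower among all genes tested. No shift of a list is read from such small counts. CYCS, which encodes cytochrome c, rose from 318 ± 16.2 to 415 ± 21.0 CPM (log2 fold change 0.38, adjusted p = 1.69e-05, edgeR). CASP8, the caspase that cleaves BID, fell from 36.6 to 31.9 CPM (-0.20, adjusted p = 0.0179, edgeR), a call lost without Control replicate 2, without 25(OH)D replicate 1 and without 25(OH)D replicate 2. Of 7 inhibitor of apoptosis genes 6 were tested, with none higher and 2 lower. The lower p belonged to BIRC5, or survivin, which also acts in mitosis and went from 51.6 ± 2.07 to 35.4 ± 4.89 CPM (log2 fold change -0.54, adjusted p = 1.41e-04, edgeR). Of 8 BCL2-like and BNIP genes 7 were tested, with 3 lower and 1 higher, among them BNIP2 (log2 fold change -0.46, adjusted p = 3.18e-05, edgeR) and BCL2L13 (0.16, adjusted p = 0.0214, edgeR), whose call was lost in 7 of 15 other settings.

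**Figure D4:**
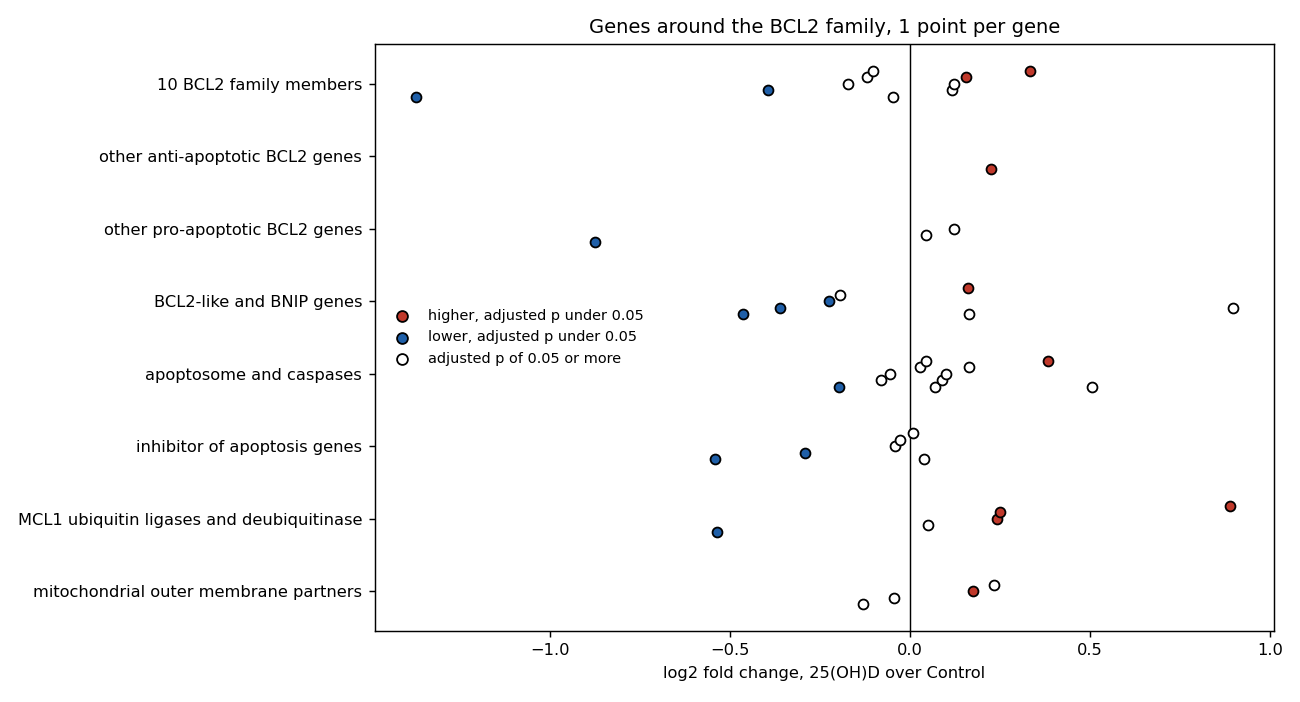
log2 fold change of 25(OH)D over Control (x axis) of each tested gene in the BCL2 family and in 7 lists of related genes (rows), 1 point per gene, red for called higher, blue for called lower and white for not called. HUWE1 at 0.89 and FBXW7 at -0.54 lie at opposite ends of the row of MCL1 ligases, and BMF at -0.88 is the lowest of the other pro-apoptotic genes.

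Of 13 listed genes for transcription factors that act on BCL2 family promoters, 12 were tested, with 2 higher and 5 lower. Among all genes tested, 17.3% were higher and 16.5% lower. The lowest p of those that fell was that of ATF4, which went from 404 ± 22.5 to 241 ± 8.14 CPM (log2 fold change -0.75, adjusted p = 1.14e-08, edgeR). ATF4 with its partner DDIT3 can induce BBC3, PMAIP1 and BCL2L11 under stress. BBC3 and BCL2L11 were called lower and PMAIP1 was not called. Whether ATF4 had a part in these values was not tested.

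The 4 calls within the family were repeated under 15 other settings. BCL2L1 stayed higher in all 15, with a log2 fold change of 0.28 to 0.36. BCL2L11 and BBC3 stayed lower in all 15, with adjusted p between 8.04e-04 and 0.0287 for BCL2L11 and between 5.20e-06 and 0.0155 for BBC3. MCL1 kept its sign in all 15, with adjusted p between 0.00317 and 0.110. The plot of the settings gives every value.

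**Figure D5:**
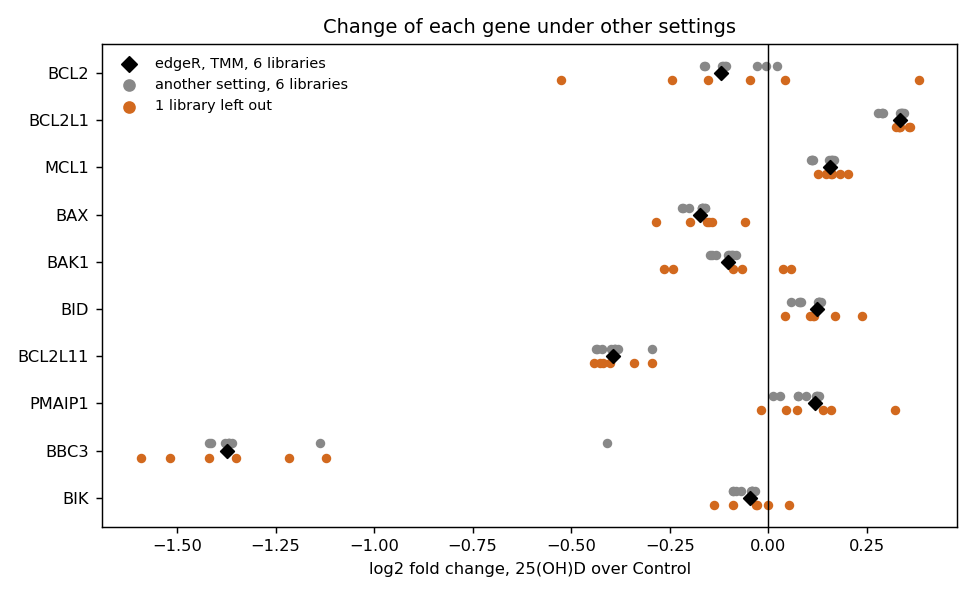
log2 fold change of each member (x axis) by edgeR with TMM on 6 libraries (black diamonds), under another setting on 6 libraries (grey) and with 1 library left out (orange). BCL2L1, MCL1, BAX, BID, BCL2L11 and BBC3 stay on 1 side of 0, while BCL2, BAK1, PMAIP1 and BIK cross it in at least 1 setting.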

How the data were processed

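The study sequenced stranded mRNA of the 6 samples as paired reads. According to the submitters' processing notes, the authors trimmed reads with Trimmomatic 0.36, counted reads per gene with featureCounts of Subread 1.5.1 on GRCh38 and used edgeR 3.12.1. The aligner, the annotation release and the strand setting are not given in the sources used here. The deposited counts are whole numbers without normalization. The deposited RPKM values are count over gene length and library total, as checked on every value (largest relative difference 2.23e-13). The table lists no gene without a count, and the bounds of the 10 members match those in GENCODE 29.

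Counts of the 18183 genes that passed edgeR's filter (minimum count 10) were tested in R 4.3.3 with edgeR 4.0.16 (TMM, quasi-likelihood, 25(OH)D against Control, no covariate). The biological coefficient of variation was 0.0788. The test recovered 200 of 200 changed genes and called 9 others among 17937 when tested on simulated data. The changed genes there had a mean above 1 CPM and log2 fold changes of 1 or more in size. Every gene was given the same biological coefficient of variation. The simulation therefore does not show how well smaller changes, or changes of genes with fewer counts, are found. Alternatives were other scaling, no filter, DESeq2 1.42.0, limma 3.58.1 on log2(RPKM + 1) and log2(RPKM + 0.1), the replicate number as a block, each library left out and, chosen after seeing the data, mitochondrial genes or BCL2L1 left out. Other steps used Python 3.11.15 with pandas 2.3.3, numpy 2.4.6 and matplotlib 3.10.9.

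Members and lists were chosen with earlier results of these data known. Named were all 10 members, the gene with the lowest p among those called higher and among those called lower in each other list, and any gene of lists of up to 5, except items that are not reported here.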

Additional observations from a re-analysis of the deposited data

How the results depend on the processing

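The number of members called lower was 2 in every setting. The number called higher was 1, with MCL1 lost, under upper-quartile factors (log2 fold change 0.11, adjusted p = 0.0725), library sizes alone (0.11, adjusted p = 0.0731), limma on log2(RPKM + 1) (0.11, adjusted p = 0.109) and limma on log2(RPKM + 0.1) (0.11, adjusted p = 0.110), and 1 to 2 when 1 library was left out. BBC3 was the member past the study's limits except under limma on log2(RPKM + 1), where 0 members passed and its value was -0.41, a scale that understates the change of low genes. The genes called numbered 2391 to 3298 higher and 2349 to 3667 lower over all settings, and 2742 to 3031 and 2349 to 2666 with 1 library left out. The fold of the summed RPKM ratio was 1.28 to 1.33 with 1 library left out and 1.23 without BCL2L1.

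Genes that were not called changed sign in some settings. BCL2 was 0.0205 with the replicate block and -0.53 to 0.38 with 1 library left out, BAK1 -0.26 to 0.057, BIK -0.14 to 0.051, PMAIP1 -0.0185 to 0.32 and BOK -0.0240 to 0.16. The cause was not tested. Deviations of same-numbered libraries correlated at -0.07, -0.01 and -0.05, and no library correlated best with its own number. No deviation shared by number was thus detected. Whether same-numbered libraries were handled together cannot be told from these values. The replicate block gave 3057 genes higher and 2896 lower, with 2 members in each direction, and VDAC3 (adjusted p = 0.0499) and MTCH2 (0.0244) were called by edgeR in that fit. Depth limits BCL2, PMAIP1 and BBC3 most, with 8 to 94 counts per library, and the counts show neither protein nor splice forms.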
